A study of Homo sapiens with 183 samples.

Results

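The cytosolic ribosomal protein genes were taken as all gene symbols made of RPL or RPS, digits and at most a closing A or X, together with RPLP0, RPLP1, RPLP2 and RPSA, kept where their mean over all libraries reached 10 TPM. The rule found 77 genes among 19875 gene names, and all 77 names that matched also passed the minimum. They comprised 46 genes of the large subunit (RPL and RPLP names) and 31 of the small subunit (RPS and RPSA names). Their mRNA was followed in RNA-seq libraries of 59 groups from 9 established human cancer lines. FAU, which encodes a ribosomal protein as a ubiquitin-like fusion under another name, and tissue-restricted paralogues such as RPL39L fell outside the rule.

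The study asked how the transcription factor KLF5 and the ATPases RUVBL1 and RUVBL2 act in pancreatic ductal adenocarcinoma (PDAC), and which lines respond to CB6644, a small-molecule inhibitor of the RUVBL1/2 complex. RNA of 5 PDAC lines (BxPC-3, T3M-4, CFPAC-1, AsPC-1 and SUIT-2) was collected on day 5 of CRISPR-Cas9 knockout. The knockout arms carried sgKLF5, sgRUVBL1, sgRUVBL2, sgCDK1, sgRpa3, sgCHD4 or sgSERPINB5, and every knockout experiment had its own arm with sgRosa, which targets the ROSA26 safe-harbour locus. AsPC-1 and T3M-4 cells that carried an empty vector (Lv-Empty) or a lentiviral cDNA of the variants RUVBL1_A62T or RUVBL2_dF109 received CB6644 or its solvent DMSO for 24 h. Parental T84 (colorectal cancer), A375 (melanoma), H1048 (small cell lung cancer of the tuft-like P subtype) and RH30 (alveolar rhabdomyosarcoma) cells received CB6644 or DMSO for 24 h with 4 libraries per arm. Knockout arms held 2 to 6 libraries and vector arms 3 with CB6644 and 1 with DMSO. AsPC-1 was used in 3 numbered knockout experiments and in a separate sgCHD4 experiment, and T3M-4 and BxPC-3 in 2 experiments each. Neither the sgRNA used in a library nor whether libraries of an arm came from separate cultures is given in the labels, so p-values measure only the spread between libraries.

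Ribosomal proteins are made in the cytoplasm, imported into the nucleolus, joined to ribosomal RNA there and exported as a small and a large subunit. The small subunit holds the mRNA channel and the decoding centre, and the large subunit forms the peptide bond and releases the chain through its exit tunnel. Their mRNAs are among the most abundant of a growing cell, and most begin with a terminal oligopyrimidine (TOP) tract, a C followed by an unbroken run of C and T, through which their translation responds to mTOR signalling. Many of the genes also carry snoRNAs in their introns, and RUVBL1 and RUVBL2 are known to take part in assembling snoRNA particles.

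The TOP tract is a sequence feature that many of the genes carry and that the rule did not use. The bases around the transcription start are therefore shown for some of the members whose changes differed from those of the other members, picked after these were seen. The RefSeq table of promoters (GRCh38.p14) held 62 of the 77 genes. Each window runs 5′ to 3′ on the gene's own strand from 20 bases before to 10 bases from the listed start, and capitals mark the run of pyrimidines that opens with C at the listed start. The first 5 genes rose relative to the member mean in several of the comparisons described later, the next 4 fell relative to it in several, and RPS13 rose relative to it after RUVBL1 knockout. RPSA, among the 4, stood 0.08 above the member mean with CB6644 in RH30.
RPL39, chrX:119791621-119791650, minus strand: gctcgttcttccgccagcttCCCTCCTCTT
RPLP2, chr11:809947-809976, plus strand: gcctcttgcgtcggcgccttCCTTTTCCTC
RPS10, chr6:34426060-34426089, minus strand: cagcaccgcgcatgctccttCCTTTCCagc
RPS21, chr20:62387083-62387112, plus strand: tgccgggtgactagctgcttCCTTTCTCTC
RPS15, chr19:1438376-1438405, plus strand: ataactgcgcaggcgcggaccaaagcgatc
RPS6, chr9:19380227-19380256, minus strand: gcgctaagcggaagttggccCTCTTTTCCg
RPL10, chrX:154398045-154398074, plus strand: ttccttttttccactctcagaaatatacgt
RPLP0, chr12:120201102-120201131, minus strand: ggcacgcgcgggcgcgaggcCCTTCTCTCg
RPSA, chr3:39406700-39406729, plus strand: cgtcatttcctgccgcctgtCTTTTCCgtg
RPS13, chr11:17077658-17077687, minus strand: ggcgtttccactctcgctctCCTTTCgttg

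A start base C followed by a run of at least 5 pyrimidines in all was present at the listed start of 42 of the 62 members (67.7%) and of 648 of 14653 other genes (4.42%). Within 10 bases of the listed start such a run was present in 80.6% of members and 27.3% of other genes. The listed starts of RPS15 and RPL10 carried no run, which says only that these letters are not at the listed base. Over the 300-base promoters and on either strand, the ETS-type letters CCGGAAG were found in 33.9% of members and 14.3% of other genes, and AAGATGG, the YY1-type letters, in 12.9% and 6.42%. The E-box CACGTG was found in 4.84% and 8.93%, GGGCGG in 54.8% and 59.3% and TATAAA in 8.06% and 9.39%. These are matches of letters in a window and not sites.

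The values are TPM, a length-corrected share of all transcripts that adds up to 1000000 in each library. Depth could not be recovered, and genes at 1 TPM or more, 11292 to 14024 per library, stand in its place. The 77 genes together took 13.6% to 34.4% of the TPM of a library, with a median of 19.7%. In the sgRosa or parental DMSO libraries of each line their share was highest in SUIT-2 at 29.0% ± 3.61 (SD, n = 4), followed by A375 at 23.3% ± 0.182 (n = 4), RH30 at 21.9% ± 0.235 (n = 4) and AsPC-1 at 21.1% ± 0.839 (n = 14). BxPC-3 at 19.7% ± 0.591 (n = 6), T84 at 19.5% ± 0.750 (n = 4) and T3M-4 at 19.2% ± 1.98 (n = 6) lay within each other's spread. H1048, with 4 libraries at 16.7% to 17.1%, and CFPAC-1 at 15.6% ± 1.05 (n = 4) were lowest, and the highest CFPAC-1 library, at 16.7%, reached the lowest of H1048. The tables of the lines were made separately, so these levels are a description.

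**Figure D1:**
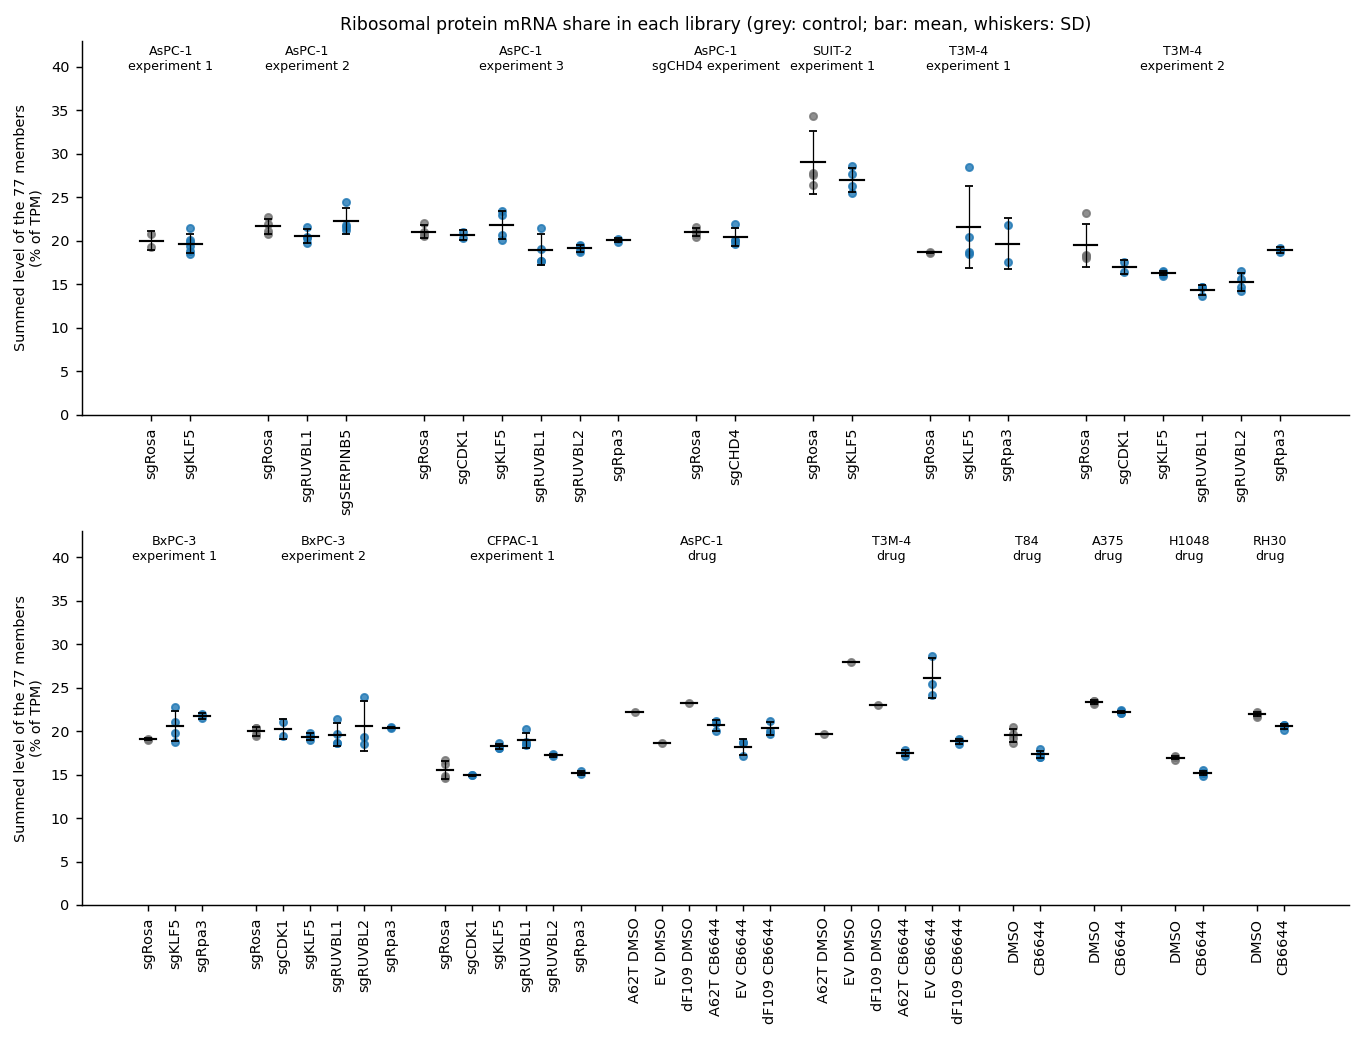
Summed level of the 77 genes as a percent of TPM in each library, by line, experiment and arm (EV, Lv-Empty; grey, sgRosa or DMSO; blue, the other arms; bar, mean; whiskers, SD). The share was 13.6% to 14.7% in the 3 T3M-4 sgRUVBL1 libraries of experiment 2, below all 4 sgRosa libraries, and 18.4% to 20.2% in the 4 CFPAC-1 sgRUVBL1 libraries, above all 4 sgRosa libraries.

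Single libraries stood apart within their arms. SUIT-2 sgRosa replicate 1 had a share of 34.4% where the other 3 libraries had 26.4% to 27.8%. In T3M-4, sgKLF5 replicate 2 of experiment 1 had 28.5% and sgRosa replicate 4 of experiment 2 had 23.2%, beside 18.1% to 18.4% in the other sgRosa libraries of that experiment. Within arms, the share fell as the number of detected genes rose: over the 53 arms with at least 2 libraries, the differences from the arm means had Pearson's r = -0.903 and Spearman's rho = -0.81, a description over libraries that share arms and in which both measures come from the same TPM values. The part of RNA quality or depth in the shares was not tested.

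**Figure D2:**
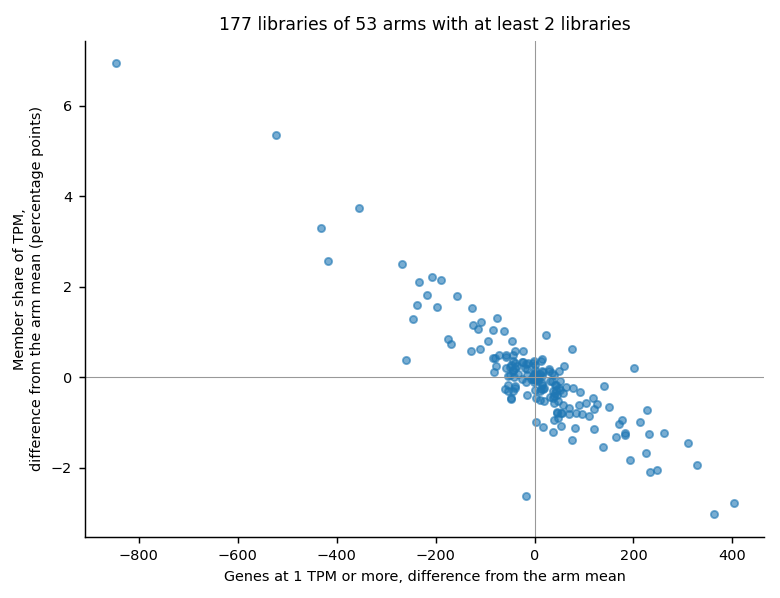
Difference of each library from the mean of its arm in the summed TPM share of the 77 genes (vertical, percentage points) and in how many genes reached 1 TPM (horizontal), for the libraries of the 53 arms with at least 2. Libraries with fewer detected genes than their arm had higher shares, with r = -0.903.

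The labels were checked against the targeted mRNA and against markers of each line. RUVBL1 and RUVBL2 mRNA stood at 27.1% to 44.8% of sgRosa in their knockout arms. KLF5 mRNA stood at 75.3% to 170% of sgRosa in the sgKLF5 arms and CHD4 mRNA at 124%, and an edit of the coding sequence need not lower the mRNA, so these values do not check the edit. CDK1 mRNA stood at 35.8% in T3M-4 but at 93.1% in CFPAC-1. MYOD1 was at 736 TPM in RH30, POU2F3 at 476 TPM in H1048, CDX2 at 90.5 TPM in T84 and SOX10 at 235 TPM in A375, while the melanocyte pigment genes PMEL and MLANA were at 0.914 and 1.23 TPM in A375.

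The most abundant member was RPL41, which encodes the smallest ribosomal protein, with a mean of 8275 TPM over all libraries and a range of 4140 to 18789 TPM. RPS18 (6277 TPM), RPS2 (5422 TPM), RPLP1 (5140 TPM) and RPS27 (5134 TPM) followed. The lowest means were those of RPL27A (344 TPM), RPL13 (433 TPM), RPL22 (470 TPM), RPS23 (476 TPM) and RPS26 (524 TPM). Members of the same complex thus differed widely in mRNA level per unit length. RPL17, RPL36A, RPS10 and RPSA share exons or near-identical sequence with the read-through genes RPL17-C18orf32, RPL36A-HNRNPH2 and RPS10-NUDT3 and the copy RPSAP58, which were listed at medians of 52.7, 93.5, 38.4 and 125 TPM, and how reads were divided between them is uncertain.

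Between lines the members did not move as a block. The widest range of control levels was that of RPS3, a small-subunit protein at the mRNA entry, from 1036 ± 38.9 TPM in H1048 to 5735 ± 365 TPM in SUIT-2 (SD, n = 4 each), 2.47 on the log2 scale. RPS6, the substrate of S6 kinase, ranged from 1311 ± 36.1 TPM in T84 to 6384 ± 151 TPM in A375, and only SUIT-2, at 6255 ± 407 TPM, came within the spread of A375. RPLP2, a protein of the lateral stalk that recruits elongation factors, ranged from 1264 ± 115 TPM in CFPAC-1 to 5637 ± 545 TPM in T84. RPL13 and RPS3A completed the 5 widest, with ranges of 2.03 and 1.93 on the log2 scale. The median member ranged over 1.33 and the narrowest, RPS9, over 0.70.

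Members on some chromosomes were high or low together in a line. Chromosomes X, 8, 16 and 17 are described because of their values, out of 15 with at least 3 members. All members were highest or all lowest in 1 line on 3 of the 15 and not on the other 12, such as chromosome 3, where 1 of 7 was highest in the line with the highest median. Levels were taken relative to the member mean of each line and to each gene's mean over the 9 lines. All 4 members on chromosome X (RPL10, RPL36A, RPL39 and RPS4X) were lowest in T3M-4, with a median of -0.86 on the log2 scale. RPS4X was at 1058 ± 91.4 TPM in T3M-4 and between 1803 and 3892 TPM in the other lines, with no overlap between T3M-4 and any other line in the means ± SD. All 4 members on chromosome 8 (RPL30, RPL7, RPL8 and RPS20) were highest in AsPC-1, with a median of 0.65, and 3 of them were lowest in RH30, with a median of -0.82. All 3 members on chromosome 16 (RPL13, RPS15A and RPS2) were lowest in H1048, with a median of -0.79. RPL19 and RPL23 on chromosome 17 stood 1.17 and 1.02 above their mean in CFPAC-1 while RPL26 on the same chromosome stood at -0.55 there. Copy number was not measured here.

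**Figure D3:**
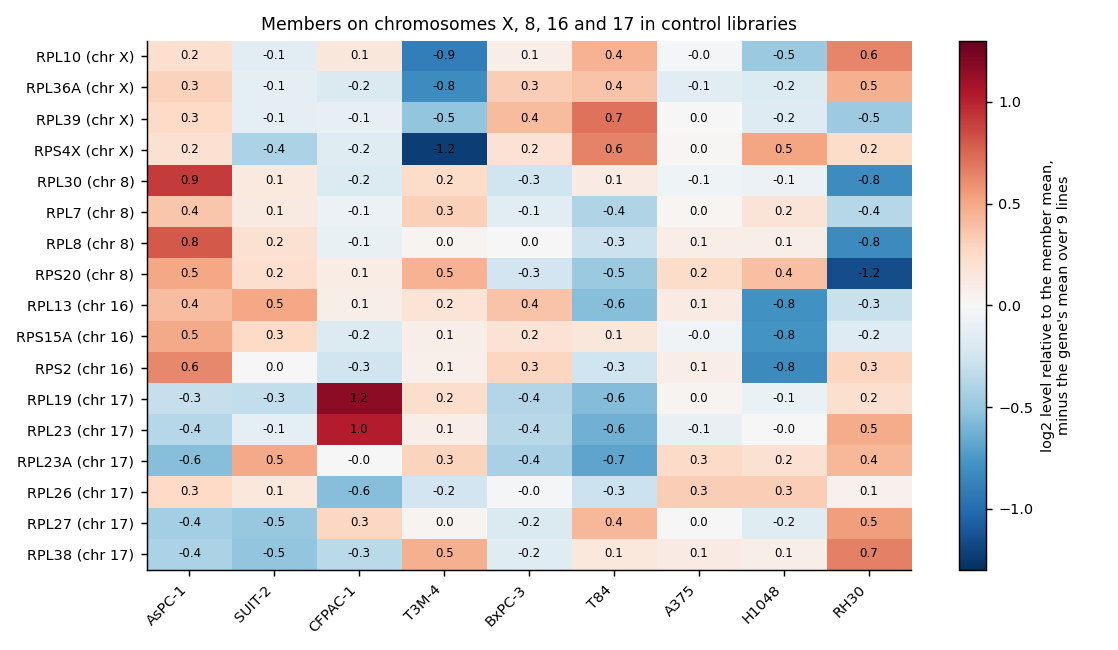
Level of the members on chromosomes X, 8, 16 and 17 in the control libraries of 9 lines (colour and printed value, log2 relative to the member mean and to the gene's mean over lines). The 4 chromosome X members are lowest in T3M-4 (RPS4X at -1.22) and the 3 chromosome 16 members lowest in H1048 (RPS2 at -0.83).

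Among genes outside the rule, the control levels most like the summed share over the 9 lines were those of COQ4, a coenzyme Q synthesis protein (Pearson's r = 0.871), CARS, a tRNA synthetase (r = 0.835), and UNC13A, a synaptic vesicle priming protein (r = 0.835). With 9 points chosen from all genes, these values are a description.

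After RUVBL1 or RUVBL2 knockout the ribosomal protein mRNAs moved in opposite directions in different lines. In T3M-4 most fell with either sgRNA target, in CFPAC-1 most rose with sgRUVBL1 and a smaller number with sgRUVBL2, in AsPC-1 a part fell and a few rose, and in BxPC-3 few passed the test. In bulk RNA, less RNA per cell and fewer cells with a high level cannot be told apart, and since TPM values of a library add up to a constant, a lower TPM can accompany a rise of other mRNAs. Changes are log2 differences of TPM + 1 with standard errors (SE), and all adjusted p-values are from limma with Benjamini-Hochberg adjustment over all genes tested in that experiment, with a threshold of 0.05.

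In T3M-4, 73 of 77 members fell with sgRUVBL1 and none rose, where 14.6% of all 13246 genes tested were called lower and 6080 genes higher. With sgRUVBL2, 65 fell and none rose, where 15.2% of all genes were called lower and 5208 genes higher. The sgRUVBL1 libraries also had more genes at 1 TPM or more, 13438 to 13552, than the sgRosa libraries with 12411 to 13028, and the sgRUVBL2 libraries had 13116 to 13575. The part of this in the result was not tested. The member median was -0.40 with sgRUVBL1 while the median of all genes was 0.25, and -0.32 and 0.19 with sgRUVBL2. RPS2, at the mRNA entry of the small subunit, was at 3010, 2704 and 3093 TPM in the sgRUVBL1 libraries, at 3068, 2984, 3416 and 2639 TPM in the sgRUVBL2 libraries and at 4659, 4798, 4951 and 6133 TPM in the sgRosa libraries. The knockout libraries all lay below all controls, with a change of -0.80 (SE 0.090, adjusted p = 1.38e-06) with sgRUVBL1 and -0.76 (SE 0.084, adjusted p = 1.03e-06) with sgRUVBL2. RPLP0, the base of the stalk, was at 3469, 3164 and 3489 TPM with sgRUVBL1 and at 5339, 5237, 5288 and 6634 TPM with sgRosa, again with no overlap, a change of -0.73 (SE 0.081, adjusted p = 1.14e-06). RPSA, a small-subunit head protein also known as the laminin receptor precursor, fell by 0.79 and RPS3 by 0.64 on the log2 scale with sgRUVBL1. The smallest change was that of RPS13, at 2118, 2024 and 2211 TPM with sgRUVBL1 and 2144, 2077, 2108 and 2625 TPM with sgRosa, which overlapped (-0.07, SE 0.086, adjusted p = 0.467). The sgRosa library with the highest values of RPS2, RPLP0 and RPS13 was replicate 4, whose share stood apart, and the counts stayed within 1.5 times without it. Members of several role groups were among those that fell with sgRUVBL1: the 5S particle proteins RPL5 and RPL11 by 0.30 and 0.44, the late-joining RPL10 by 0.38, the ubiquitin fusion RPS27A by 0.42 and RPL41 by 0.57.

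In CFPAC-1, 69 of 77 members rose with sgRUVBL1 and none fell, where 6.54% of all 12748 genes tested were called higher and 4750 genes lower. With sgRUVBL2, for which there were 2 libraries, 18 rose, where 2.83% of all genes were called higher. The member medians were 0.27 and 0.14, and the medians of all genes -0.20 and -0.09. Here the sgRUVBL1 libraries had fewer genes at 1 TPM or more, 12386 to 12566, than the sgRosa libraries with 12640 to 12841, and the part of this in the result was not tested. RPL31, a large-subunit protein near the tunnel exit, was at 3134, 2854, 2819 and 2809 TPM with sgRUVBL1 and at 1703, 2282, 1870 and 2388 TPM with sgRosa. All 4 knockout libraries lay above all controls, a rise of 0.51 (SE 0.088, adjusted p = 0.000396). RPL39, which lines the exit tunnel, was at 3768, 3426, 3323 and 3400 TPM with sgRUVBL1 and at 2322, 2444, 2327 and 2880 TPM with sgRosa, a rise of 0.48 (SE 0.066, adjusted p = 8.42e-05), and RPL36A and RPLP2 each rose by 0.48. RPL10, which joins the large subunit last, was at 860, 766, 783 and 862 TPM with sgRUVBL1 and at 809, 929, 807 and 868 TPM with sgRosa, which overlapped (-0.06, SE 0.058, adjusted p = 0.411), the 1 member with a negative value in that comparison. With sgRUVBL2 the largest rises were those of RPL13 (0.40), RPLP2 (0.36), RPL31 (0.36) and RPLP1 (0.34). That count of 18 became 8 without sgRosa replicate 1, 9 without sgRosa replicate 3, 0 without sgRUVBL2 replicate 1 and 4 without sgRUVBL2 replicate 2, and it was 0 when the 2 arms were fitted alone.

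In AsPC-1 the knockout of RUVBL1 split the members, in both experiments. In experiment 3, 34 members fell and 4 rose, where 15.2% of all 12224 genes tested were called lower and 36.6% higher. In experiment 2, 31 fell and 7 rose, where 25.8% of all 11645 genes tested were called lower and 30% higher. With sgRUVBL2 in experiment 3, 22 fell, where 11% of all genes were called lower, and RPS13 rose, where 3936 of 12224 were called higher. RPSA was at 729, 768, 877 and 988 TPM with sgRUVBL1 and at 1198, 1219, 1218 and 1172 TPM with sgRosa in experiment 3, with no overlap and a change of -0.53 (SE 0.078, adjusted p = 2.37e-05). RPS6 was at 1167, 1187, 1401 and 1598 TPM with sgRUVBL1 and 1852, 1756, 1739 and 1886 TPM with sgRosa in experiment 3, a change of -0.45 (SE 0.079, adjusted p = 0.000143), and fell by 0.37 in experiment 2. RPS13, which lies at the contact of the subunits, went the other way, with 3018, 2918, 3004 and 3416 TPM with sgRUVBL1 and 2462, 2202, 2350 and 2526 TPM with sgRosa in experiment 3. All 4 sgRUVBL1 libraries lay above all controls, a rise of 0.37 (SE 0.060, adjusted p = 5.94e-05) in experiment 3 and of 0.23 (SE 0.060, adjusted p = 0.00427) in experiment 2. RPS16 and RPS15, of the small-subunit head, also rose in both experiments, by 0.23 and 0.24 in experiment 3 and by 0.25 and 0.20 in experiment 2. RPL18 rose by 0.13 in experiment 3 on the TPM scale, but its value was -0.0294 with median-of-ratios scaling, which sets libraries equal on the median gene. Under that scaling the count of falls was 15 in place of 31 in experiment 2, and 38 in place of 22 with sgRUVBL2. Genes at 1 TPM or more numbered 12148 to 12598 with sgRUVBL1 and 12035 to 12436 with sgRUVBL2 in experiment 3. The sgRosa libraries there had 11868 to 11976. In experiment 2 they numbered 11702 to 11880 with sgRUVBL1 and 11423 to 11617 with sgRosa. The part of this in the changes was not tested.

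In BxPC-3, 5 members passed the test with sgRUVBL1, where 16% of all 12380 genes tested were called in either direction, and 2 with sgRUVBL2, where 9.76% were. Both shares of the members lay below that of all genes. RPS13 was at 1659, 1692, 1864 and 1695 TPM with sgRUVBL1, at 1695, 1917 and 2091 TPM with sgRUVBL2 and at 1606, 1505, 1433 and 1423 TPM with sgRosa. The knockout libraries all lay above all controls, with rises of 0.21 (SE 0.064, adjusted p = 0.0323) and 0.35 (SE 0.070, adjusted p = 0.00665). RPL27 (-0.26), RPL22 (-0.19), a large-subunit protein with known roles outside the ribosome, and RPL35A (-0.19) fell with sgRUVBL1, and RPS7 (0.19) rose with sgRUVBL2. Leaving out 1 library gave 1 to 7 calls with sgRUVBL1 and 1 to 10 with sgRUVBL2, where sgRUVBL2 replicate 3, with the highest share of its arm at 23.9%, gave 5.

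**Figure D4:**
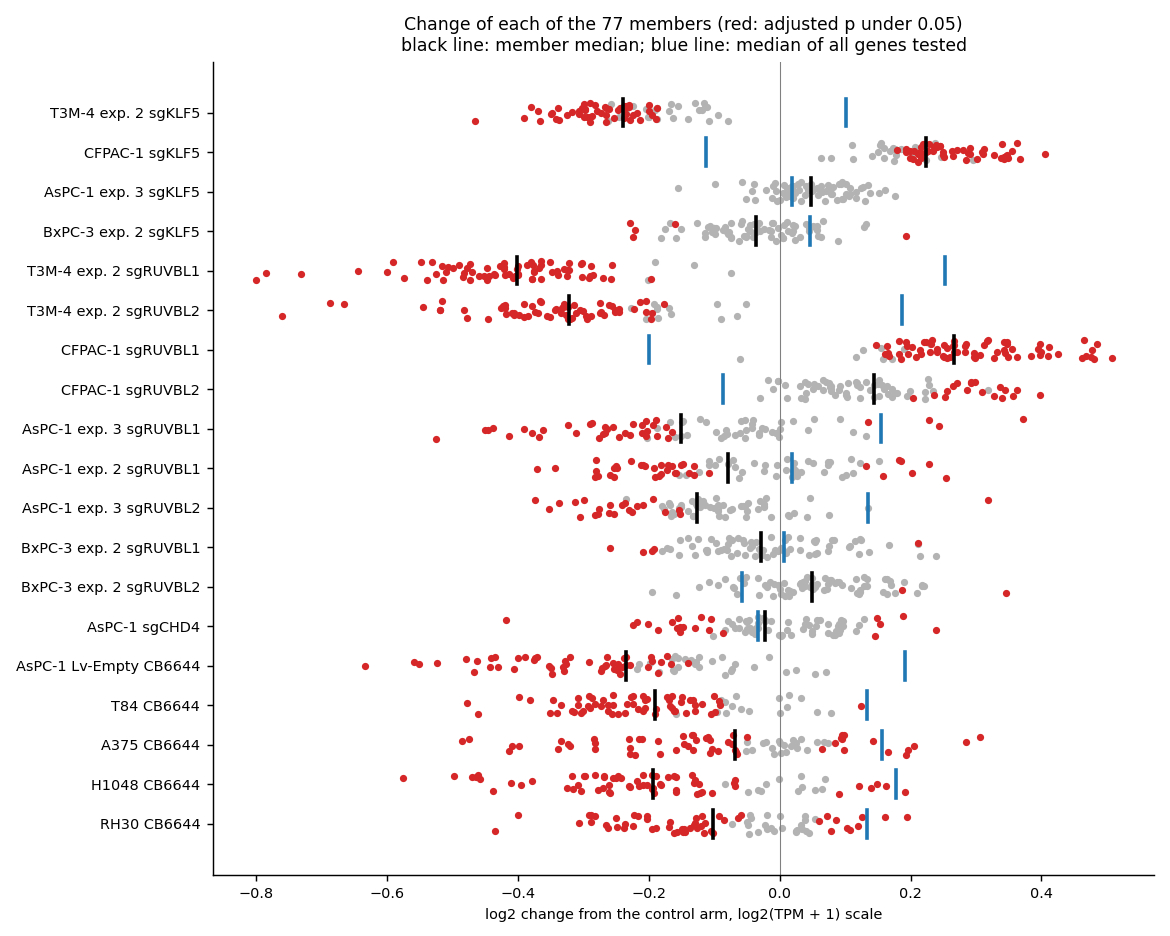
Change of each of the 77 members in 19 comparisons (points, log2 difference of TPM + 1 from the control arm; red, adjusted p under 0.05 in limma; black line, median of the members; blue line, median of all genes tested). The member median lies at -0.40 in T3M-4 sgRUVBL1 and at 0.27 in CFPAC-1 sgRUVBL1, on the other side of 0 from the all-gene median in both.

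Between sgRUVBL2 and sgRUVBL1 no member passed the limma test in any of the 4 lines. The share of all genes called was 3.71% in AsPC-1, 0.0226% in T3M-4, 0.0323% in BxPC-3 and 0.0235% in CFPAC-1, and 5, 1, 9 and 30 members had an unadjusted p under 0.05. Of all genes, 2444 of 12224, 1491 of 13246, 1719 of 12380 and 1875 of 12748 had one, in the same order. Only in CFPAC-1 was the share of members above that of all genes. The 30 in CFPAC-1 belonged to a member median of -0.13, sgRUVBL2 below sgRUVBL1, and the member medians of the other lines were 0.01, 0.09 and 0.07.

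To see which members moved more or less than the rest, each library was also scaled so that the mean log2 level of the 77 genes was the same in all libraries of a fit, an alternative chosen after the data were seen. The mean of the members cannot move in this fit. In the sgRUVBL1 comparisons it called 32 members in AsPC-1 experiment 3 (50.3% of all genes), 45 in AsPC-1 experiment 2 (46.5% of all genes), 19 in T3M-4 (74.5%), 11 in BxPC-3 (5.21%) and 19 in CFPAC-1 (70.4%). These experiments share no control libraries. RPL37, a zinc-binding large-subunit protein, was the 1 member above the member mean in all 5, by 0.14, 0.18, 0.22, 0.26 and 0.19 in the order given. RPS13 was above it in 4, by 0.51 in AsPC-1 experiment 3, 0.29 in AsPC-1 experiment 2, 0.34 in T3M-4 and 0.23 in BxPC-3, while its value was -0.02 in CFPAC-1 (adjusted p = 0.808). RPL39, RPL18 and RPS16 were also above the mean in 4. RPLP0 was below it in 4, by -0.27, -0.18, -0.32 and -0.14 in AsPC-1 experiments 3 and 2, T3M-4 and CFPAC-1, and its value was -0.11 in BxPC-3 (adjusted p = 0.103). RPSA, RPS6, RPS3, RPS12, RPL7, RPL7A, RPL8, RPL10 and RPL10A were among the members below it in 3 of the 5.

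After KLF5 knockout the members changed in number in T3M-4 experiment 2 and in CFPAC-1, again in opposite directions. In T3M-4 experiment 2, 52 members fell and none rose, where 11.2% of all genes were called lower and 3096 of 13246 higher. In CFPAC-1, 50 rose and none fell, where 3.26% were called higher and 1651 of 12748 lower. The member medians were -0.24 and 0.22 and the all-gene medians 0.10 and -0.11. The direction in T3M-4 was not that of experiment 1, where the member median was 0.17 and 68 of 77 values were positive with no member past the test, while in experiment 2 all 77 values were negative. In experiment 1 the sgKLF5 shares were 20.4%, 28.5%, 18.5% and 18.8%, beside 18.7% and 18.7% with sgRosa. Replicate 2, the sgKLF5 library at 28.5%, stood apart and had 11524 genes at 1 TPM or more. The difference between the experiments was not tested. Genes at 1 TPM or more numbered 13018 to 13116 with sgKLF5 in T3M-4 experiment 2 and 12498 to 12579 in CFPAC-1, beside the sgRosa ranges given above, and their part was not tested. In T3M-4, RPS2 was at 3797, 3601, 3617 and 3769 TPM with sgKLF5, below all sgRosa libraries given above (-0.47, SE 0.084, adjusted p = 0.0003), and RPS16 (-0.39), RPS3 (-0.38) and RPSA (-0.37) followed. In CFPAC-1, RPL37A, a zinc-binding protein of the large subunit, was at 3764, 3389 and 3348 TPM with sgKLF5 and 2304, 2844, 2623 and 2827 TPM with sgRosa, with no overlap (0.40, SE 0.090, adjusted p = 0.009), and RPSA (0.37), RPS15 (0.36) and RPS10 (0.35) followed. These arms share their sgRosa libraries with the RUVBL1 and RUVBL2 arms of the same line. The count of 52 was 34 without T3M-4 sgRosa replicate 4. The count of 50 was 12, 22 and 27 without sgKLF5 replicates 1, 2 and 3, 18 and 20 without sgRosa replicates 1 and 3, and 20 with the 2 arms fitted alone.

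Elsewhere few members moved with sgKLF5, and fewer than among all genes. In AsPC-1, 1 passed in experiment 1 (25.9% of all genes) and 0 in experiment 3 (27.8%), where 2 had an unadjusted p under 0.05 in limma, beside 4667 of all 12224 genes. The 1 was RPL8, at 3949 to 4976 TPM in 6 sgKLF5 libraries and 5084 and 5537 TPM in the sgRosa libraries (-0.29, SE 0.088, adjusted p = 0.0345). In BxPC-3, 4 rose in experiment 1 (16.2% of all genes in either direction), led by RPLP2 (0.29), RPS7 (0.28), RPL37A (0.28) and RPL13A (0.25). In BxPC-3 experiment 2, RPL3, which shapes the peptidyl transferase centre, RPS2, RPL8 and RPL13 fell and RPL24 rose, 5 in all (34.6% of all genes). No member passed in SUIT-2 (3.94% of all genes) or in T3M-4 experiment 1 (5.72%), where 0 and 0 had an unadjusted p under 0.05 in limma, beside 2065 of 12585 and 3206 of 12636 genes. Both fits held the libraries that stood apart, SUIT-2 sgRosa replicate 1 and T3M-4 sgKLF5 replicate 2, and without them the counts were 0 and 1.

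With sgCDK1, 7 members passed in AsPC-1 (16.7% of all genes), 14 fell in T3M-4 (3.85% called lower), 2 passed in BxPC-3 (5.82%) and 0 in CFPAC-1, where 0% of all genes passed and 6 members had an unadjusted p under 0.05 in limma. Of all 12748 genes tested in CFPAC-1, 1477 had one. RPL41 was at 4140 and 4624 TPM in the 2 AsPC-1 sgCDK1 libraries and at 6576, 6669, 6575 and 6994 TPM in the sgRosa libraries, a fall with no overlap (-0.61, SE 0.085, adjusted p = 6.81e-05). RPL12, at the base of the stalk, rose there by 0.39. In T3M-4, RPS26, RPS2, RPS10 and RPS14 fell by 0.37, 0.35, 0.35 and 0.34. All 77 values were negative there, with a member median of -0.20 beside an all-gene median of 0.15. Genes at 1 TPM or more numbered 13280 and 13200 in these sgCDK1 libraries, and their part was not tested. The AsPC-1 count was 2 without either sgCDK1 library and 4 without sgRosa replicate 1, 2 or 4, and the T3M-4 count was 1 and 0 without sgCDK1 replicates 1 and 2, 24 without sgRosa replicate 3 and 8 without sgRosa replicate 4.

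With sgRpa3 no member passed in AsPC-1 (0.654% of all genes), in T3M-4 experiment 1 (0%) or in BxPC-3 experiment 1 (0.307%), where 1, 0 and 31 had an unadjusted p under 0.05 in limma. Of all genes tested, 1081 of 12224, 189 of 12636 and 1024 of 12398 had one. In BxPC-3 experiment 1, with 2 libraries per arm, all 77 values were positive. The member median there was 0.19 beside an all-gene median of -0.13. Genes at 1 TPM or more numbered 12090 and 12245 with sgRpa3 there and 12274 and 12273 with sgRosa, and their part was not tested. In T3M-4 experiment 2, 1 passed (24.6% of all genes): RPS26, which lies at the mRNA exit, was at 332 and 358 TPM with sgRpa3 and 515, 492, 430 and 560 TPM with sgRosa (-0.53, SE 0.090, adjusted p = 0.000625). In BxPC-3 experiment 2, 4 rose (20.8% of all genes), and in CFPAC-1 2 rose (11.6%). RPL28, a large-subunit protein, was among both, at 2315 and 2195 TPM with sgRpa3 and 1641, 1808, 1819 and 1845 TPM with sgRosa in BxPC-3, and at 1051 and 1113 TPM and 772, 888, 903 and 860 TPM in CFPAC-1. The rises were 0.34 in both lines, and RPL28 also rose with sgCDK1 in BxPC-3 (0.46), which shares those controls. Without either sgRpa3 library no member passed in BxPC-3 experiment 2 or in CFPAC-1.

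With sgCHD4 in AsPC-1, 16 members fell and 5 rose, where 26.7% of all 11939 genes tested were called lower and 23.3% higher, both above the members' shares. RPS2 was at 5740, 5885, 5687 and 5755 TPM with sgCHD4 and at 7411, 7380, 7968 and 8069 TPM with sgRosa. All 4 knockout libraries lay below all controls (-0.42, SE 0.036, adjusted p = 2.27e-06), and the next falls, those of RPS14 and RPS12, were each of 0.22. RPS19 (0.24) and RPS16 (0.19) led the rises. The count of falls was 2 with median-of-ratios scaling and 26 without sgCHD4 replicate 2. Genes at 1 TPM or more numbered 11895 to 12105 with sgCHD4 and 11672 to 11774 with sgRosa, and their part was not tested. With sgSERPINB5 no member passed (0.0343% of all genes), and 10 had an unadjusted p under 0.05 in limma, as had 802 of all 11645 genes tested.

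With CB6644 for 24 h in Lv-Empty AsPC-1 cells, 49 members fell and none rose against the 3 DMSO libraries of that line, where 17.2% of all 12257 genes tested were called lower and 5783 genes higher. RPS6 was at 1122, 1108 and 999 TPM with CB6644 and at 1440 (Lv-Empty), 1756 (RUVBL1_A62T) and 1837 TPM (RUVBL2_dF109) with DMSO, with no overlap (-0.63, SE 0.080, adjusted p = 2.73e-05). RPL10 was at 746, 730 and 675 TPM with CB6644 and at 837, 1158 and 1127 TPM with DMSO in the same order (-0.52, SE 0.095, adjusted p = 0.000447), and RPL23 and RPL7 fell by 0.56 and 0.55. The Lv-Empty DMSO library had the lowest values of both RPS6 and RPL10 among the DMSO libraries and the lowest share of the 77 genes, 18.7% against 22.2% and 23.2%. Against that library alone 13 members fell. With 1 DMSO library the spread is taken from the other arms of the fit, and the lone library is assumed to vary like them, here and in the other comparisons with the DMSO library of 1 vector. Genes at 1 TPM or more numbered 12394 to 12693 in the Lv-Empty CB6644 libraries and 11767 to 12009 in the DMSO libraries, and their part was not tested. In addition, without Lv-Empty CB6644 replicate 3 32 fell.

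In variant-carrying AsPC-1 cells the counts depended on which DMSO libraries served as controls. The shares of all genes called with the other choices of controls are not given here. Against the 3 DMSO libraries, 1 fell with RUVBL1_A62T (1.98% of all genes called lower) and 4 with RUVBL2_dF109 (4.1%), among them RPSA in both (-0.21 and -0.24) and RPLP0 with RUVBL2_dF109 (-0.22). Without the Lv-Empty DMSO library the counts were 15 and 44, and against its own DMSO library alone 0 and 46 fell. The CB6644 libraries were also compared with each other. The single Lv-Empty DMSO library was already lower, by share and by RPL10 as given above. The vector, the drug and the variation of single libraries therefore cannot be told apart there either. In this comparison 36 members were lower in Lv-Empty than in RUVBL1_A62T cells (18.9% of all genes called lower) and 31 lower than in RUVBL2_dF109 cells (20.9%), and none higher. Of all 12257 genes tested, 3956 and 3224 were called higher in the same order. RPL10 was at 1080, 1094 and 1105 TPM with CB6644 in RUVBL1_A62T cells and 971, 969 and 997 TPM in RUVBL2_dF109 cells, above all 3 Lv-Empty libraries in both (-0.61 and -0.45, adjusted p = 0.000241 and 0.00208 in limma). RPS6 was lower in Lv-Empty cells by -0.56 and -0.50. These counts were 23 and 19 without RUVBL1_A62T replicate 2 and RUVBL2_dF109 replicate 3, and 22 and 19 without Lv-Empty replicate 3.

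In T3M-4 the single DMSO libraries of the vectors differed before any drug effect could be read. The DMSO libraries had shares of 28.0% (Lv-Empty), 19.7% (RUVBL1_A62T) and 23.0% (RUVBL2_dF109), and the 3 Lv-Empty CB6644 libraries 24.1% to 28.7%. Against the 3 DMSO libraries, 5 members rose with CB6644 in Lv-Empty cells (19.1% of all 13402 genes tested called higher), led by RPL12 (0.40), RPS19 (0.39), RPS15 (0.37) and RPS16 (0.30). Against the Lv-Empty DMSO library alone 2 rose, and without that library 46 rose. In RUVBL1_A62T cells 74 members fell (4.6% called lower) and in RUVBL2_dF109 cells 33 fell (3.34%), but against the own DMSO library alone 0 fell in RUVBL1_A62T cells. Among CB6644 libraries, 76 members were higher in Lv-Empty than in RUVBL1_A62T cells (9.21% called higher) and 69 higher than in RUVBL2_dF109 cells (4.86%). RPL41 was at 12768, 12957 and 15405 TPM in Lv-Empty and at 9059, 9863 and 8925 TPM in RUVBL1_A62T cells with CB6644 (0.56, SE 0.126, adjusted p = 0.00466). With 1 DMSO library per vector, the vector, the drug and the variation of single libraries cannot be told apart for these counts. The shares of all genes called in the recounts are not given here. The count of 74 was 41 and 46 without RUVBL1_A62T CB6644 replicates 1 and 3, 48 without the Lv-Empty and 49 without the RUVBL2_dF109 DMSO library. The count of 33 was 70 without the RUVBL1_A62T DMSO library and 5 to 12 without each other library of its comparison, and that of 69 was 41, 35 and 40 without RUVBL2_dF109 CB6644 replicates 1, 2 and 3 and 46 and 36 without Lv-Empty CB6644 replicates 2 and 3.

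In the 4 parental lines outside the pancreas, with 4 libraries per arm and narrow spread, CB6644 lowered more members than it raised. In T84, 60 fell (24.2% of all 12136 genes tested called lower) and RPL12 rose (5725 genes called higher). In A375, 42 fell and 14 rose (29.7% of all 13249 genes lower and 51.5% higher). In H1048, 59 fell and 6 rose (24% of all 13715 genes lower and 53.9% higher). In RH30, 43 fell and 10 rose (27.3% of all 12153 genes lower and 50.4% higher). The member medians were -0.19, -0.07, -0.19 and -0.10, and the all-gene medians 0.13, 0.16, 0.18 and 0.13. With median-of-ratios scaling, falls numbered 67 in A375 and 67 in RH30. Genes at 1 TPM or more were higher in number with CB6644 in each line, 12307 to 12474 against 11733 to 11858 in T84, 13526 to 13605 against 12573 to 12663 in A375, 13941 to 14024 against 13181 to 13270 in H1048 and 12265 to 12363 against 11840 to 11909 in RH30. The part of this in the changes was not tested.

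RPL10 fell in all 4 lines with no overlap between arms. Its CB6644 and DMSO libraries were at 972, 1006, 988 and 1006 against 1374, 1274, 1333 and 1258 TPM in T84 and at 894, 876, 896 and 873 against 1182, 1175, 1178 and 1128 TPM in A375. They were at 401, 415, 415 and 405 against 635, 624.9, 596.5 and 583.9 TPM in H1048 and at 1273, 1317, 1230 and 1249 against 1712, 1752, 1697 and 1694 TPM in RH30. The changes were -0.40 (SE 0.035), -0.40 (SE 0.022), -0.58 (SE 0.031) and -0.44 (SE 0.024), with adjusted p = 7.82e-08, 1.6e-08, 8.37e-09 and 6.46e-09 in limma. RPL10 is the late-joining protein whose placement completes the large subunit.

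RPS6 fell in all 4 lines as well, with no overlap. It was at 951, 938, 885 and 994 TPM with CB6644 and 1320, 1258, 1334 and 1334 TPM with DMSO in T84 (-0.48, SE 0.039, adjusted p = 2.68e-08), and fell by 0.32 in A375, 0.44 in H1048 and 0.24 in RH30. RPL23 (-0.46) and RPL7 (-0.38) were the next in T84. In A375 the largest fall was that of RPL3, at 2176, 2231, 2201 and 2192 TPM with CB6644 and 3010, 2991, 3197 and 3122 TPM with DMSO (-0.48, SE 0.024, adjusted p = 7.25e-09), followed by RPL10A (-0.47), RPL28 (-0.41) and RPL6 (-0.41). In H1048, RPL17 (-0.50), RPL28 (-0.47) and RPL4 (-0.46) followed RPL10, and in RH30 RPL7A (-0.40), RPL41 (-0.31) and RPS14 (-0.29) did. Other members that fell in all 4 lines included the stalk base RPLP0 (-0.35, -0.13, -0.23 and -0.27 in the order of the lines above) and the mRNA exit protein RPS26 (-0.27, -0.33, -0.33 and -0.22).

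Fewer members rose. RPS24, at the back of the small subunit, was at 5858, 5846, 5689 and 5784 TPM with CB6644 and 4624, 4388, 4867 and 4892 TPM with DMSO in A375 (0.31, SE 0.033, adjusted p = 4.46e-06). RPS19, whose loss causes Diamond-Blackfan anaemia, was at 3488, 3575, 3828 and 3480 TPM with CB6644 and 2964, 3094, 2927 and 2809 TPM with DMSO in A375 (0.28, SE 0.036, adjusted p = 1.85e-05). In both genes all CB6644 libraries lay above all DMSO libraries, and RPL36A and RPLP2 rose by 0.20 each. RPL39 rose by 0.19 in A375 and by 0.19 in RH30, and its value was 0.06 in T84 (adjusted p = 0.212 in limma). The rises of RPLP2 (0.14), RPLP1 (0.15) and RPL39 (0.16) in H1048, of RPLP2 (0.12) and RPS19 (0.13) in RH30 and of RPL12 (0.12) in T84 became -0.0453, -0.0355, -0.0223, -0.0180, -0.0122 and -0.0155 with median-of-ratios scaling, so their direction depends on the scaling.

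A common factor per library shifts all members alike, so the members were also read against each other. Relative to the mean of the members, 38 passed the test in T84 (73.7% of all genes), 54 in A375 (82.6%), 48 in H1048 (82%) and 54 in RH30 (79%). In all 4 lines, 13 were above the member mean (RPL12, RPL15, RPL30, RPL36A, RPL37A, RPL39, RPLP1, RPLP2, RPS10, RPS15, RPS19, RPS21 and RPS24) and 9 below it, among them RPL10, RPL17, RPL23, RPL28, RPL31, RPL6, RPL7 and RPS6. RPL39 stood 0.24, 0.27, 0.34 and 0.29 above it in T84, A375, H1048 and RH30, and RPL10 stood at -0.21, -0.32, -0.40 and -0.34. Both belong to the large subunit and both are encoded on chromosome X. The acidic stalk proteins RPLP1 and RPLP2 were above the mean in all 4, and their partner RPLP0 below it in 3, with -0.05 in H1048 (adjusted p = 0.0778 in limma). Of the 13, 5 (RPL39, RPLP2, RPS10, RPS15 and RPS21) were among the 12 above the mean in at least 3 of the 5 sgRUVBL1 comparisons, and of the 9, 4 (with RPL10, RPL7 and RPS6 among them) were among the 12 below it. None of the 13 was below the mean in at least 3 of the 5, and none of the 9 was above it in at least 3. In fewer of them the sides did differ: RPL12 and RPS24 were each below the mean in 1. RPL31 was above it in 1 and below it in 2. The libraries of the drug and of the knockout comparisons are separate.

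**Figure D5:**
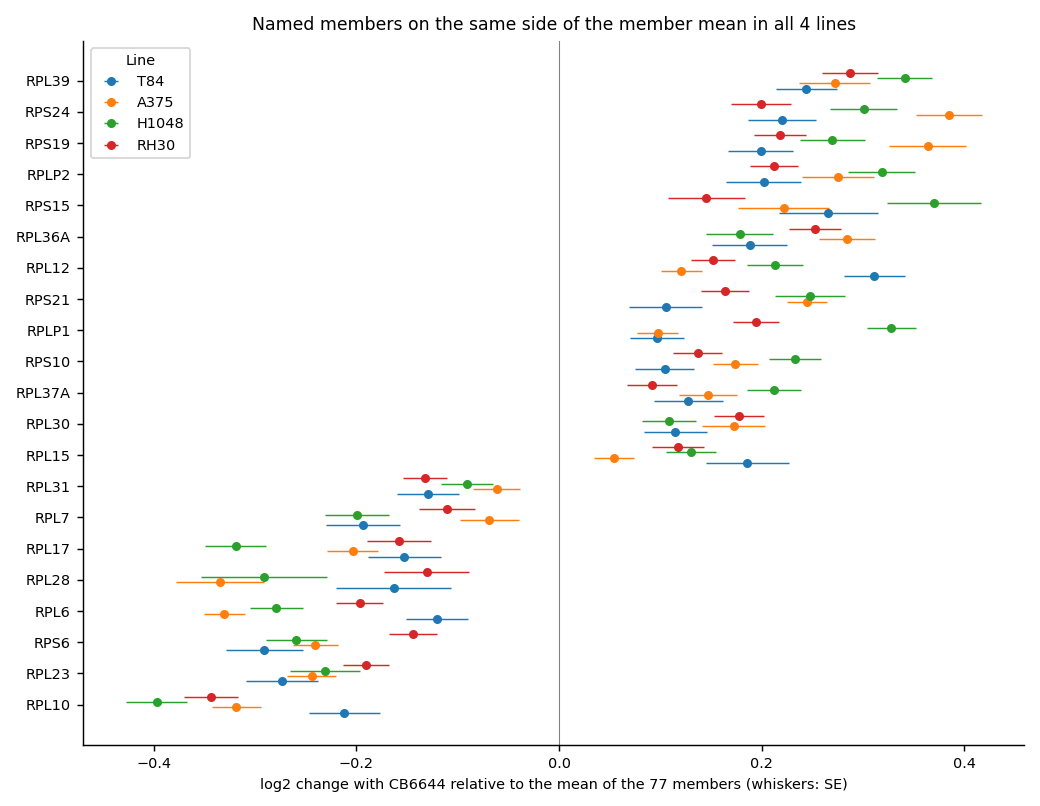
Change with CB6644 relative to the mean of the 77 members (horizontal, log2; whiskers, SE) for the members named in the text that passed the test on the same side in T84, A375, H1048 and RH30. RPL39 lies between 0.24 and 0.34 and RPL10 between -0.40 and -0.21.

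The CB6644 change was compared between the 4 lines in a fit of all 32 libraries. The share of members that differed between a pair of lines was 24.7% to 62.3% and that of all genes 50.2% to 59.5%, and only between T84 and A375 was the members' share above that of all genes. By count, 48 members differed between T84 and A375 (58.3% of all genes), 21 between T84 and H1048 (50.2%), 37 between T84 and RH30 (50.5%), 40 between A375 and H1048 (56.9%), 19 between A375 and RH30 (59.5%) and 35 between H1048 and RH30 (54%). RPL3 fell more in A375 than in T84 (T84 minus A375, 0.26, SE 0.037, adjusted p = 5.02e-07) and than in RH30 (A375 minus RH30, -0.37, SE 0.037, adjusted p = 7.43e-10). RPL7A fell more in H1048 than in A375 (A375 minus H1048, 0.33), and the change of RPL14 was lower in H1048, at -0.30, than in A375, at 0.02 (difference 0.32), where it did not pass the test (adjusted p = 0.317 in limma). RPL10 fell more in H1048 than in each of the other lines (0.18 against T84, 0.18 against A375 and -0.14 for H1048 minus RH30, adjusted p = 0.000359, 0.000265 and 0.00307), and its change in T84 minus that in A375 was -0.00117 (SE 0.039, adjusted p = 0.983). The changes of RPS3A and RPS23, of the small subunit, were lower in T84, at -0.21 and -0.29, than in RH30, at 0.08 and -0.03 (T84 minus RH30, -0.29 and -0.26).

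The changes were also set beside features of the genes that the rule did not use. The median changes of the 28 members with snoRNAs in their introns (GENCODE release 44) and of the other 49 were -0.19 and -0.19 in T84, -0.10 and -0.07 in A375, -0.21 and -0.19 in H1048, -0.06 and -0.12 in RH30, -0.39 and -0.40 in T3M-4 with sgRUVBL1 and 0.27 and 0.28 in CFPAC-1 with sgRUVBL1. Members with a pyrimidine run of at least 5 bases at the listed start had medians of -0.17 in T84, -0.03 in A375, -0.18 in H1048 and -0.07 in RH30, and the 20 without one -0.20, -0.10, -0.21 and -0.13. With sgRUVBL1 the medians with and without a run were -0.39 and -0.42 in T3M-4 and 0.29 and 0.25 in CFPAC-1. In AsPC-1 they were -0.06 and -0.12 in experiment 2. The order was reversed in AsPC-1 experiment 3 (-0.17 and -0.15) and BxPC-3 (-0.03 and 0.005). Large and small subunit genes had medians of -0.19 and -0.20 in T84 and of -0.12 and -0.05 in RH30. Across the 77 genes the change was lower for genes with more exons in 10 of 10 comparisons, with Spearman's rho between -0.46 and -0.22, a description over genes measured in the same libraries. With the length of the canonical transcript rho lay between -0.33 in H1048 and 0.13 in BxPC-3 with sgRUVBL1. Neither was computed over all genes.

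Other genes of translation were read from 3 lists. Of 19 tested translation factors and other genes whose mRNAs often carry TOP tracts, among them EEF1A1, EEF2 and RACK1, 16 fell and 0 rose with CB6644 in T84, 15 and 2 in A375, 18 and 0 in H1048 and 16 and 1 in RH30. Of all genes, 24.2%, 29.7%, 24% and 27.3% were called lower in these lines. In A375, H1048 and RH30, 51.5%, 53.9% and 50.4% were called higher, and in T84 5725 of 12136 genes. These shares also stand beside the other lists. With sgRUVBL1, 13 of the 19 fell and 0 rose in T3M-4 (14.6% of all genes called lower), and 0 fell and 9 rose in CFPAC-1 (6.54% called higher). In AsPC-1, 8 fell and 2 rose in experiment 3 (15.2% lower, 36.6% higher), and 9 fell and 2 rose in experiment 2 (25.8% and 30%). In BxPC-3, 4 fell and 0 rose (950 of 12380 genes lower). With CB6644 in Lv-Empty cells against the 3 DMSO libraries, 12 fell and 0 rose in AsPC-1 (17.2% lower). In T3M-4, 4 fell and 0 rose (2041 of 13402 genes lower). Of the 6 chaperones that escort single ribosomal proteins, 5 fell and 1 rose with CB6644 in T84 and in RH30, while 4 fell and 1 rose in A375 and 4 fell and 2 rose in H1048. Of the paralogues and fusion genes outside the rule, 7 or 8 of 10 were tested, and 2, 3, 5 and 4 fell and 0, 5, 3 and 3 rose in T84, A375, H1048 and RH30.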

How the data were processed

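RNA was sequenced as single-end, poly-A-selected libraries of human cancer lines. The authors quantified reads with kallisto against hg38 transcripts, summed them to genes with tximport, left out transcripts of low abundance and deposited TPM values in 8 tables. Since the deposited TPM hold no counts, the count model of the study was not run, and limma (version 3.58.1, R 4.3.3) with trend was fitted to log2(TPM + 1) instead, which understates changes of low genes. Depth per library is unknown, and precision rests on the number of libraries.

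All arms of a line and experiment entered 1 fit over the genes whose mean reached 1 TPM, with Benjamini-Hochberg adjustment over these genes and a threshold of 0.05. The CB6644 effects of T84, A375, H1048 and RH30 were compared in 1 fit of their libraries. The script was tested on simulated data. Groups came from the sample labels, and no pair of libraries held identical values. The members, the lists and the rule for naming genes (up to 4 largest rises and 4 largest falls among called members, with genes of set roles and the most and least abundant) were chosen with earlier results of these data known. Members listed from the comparison relative to the member mean and from chromosome levels were named after their values were seen. Tried as alternatives were adding 0.1 in place of 1, filters at 0 and at a mean of 5 TPM, median-of-ratios scaling, the compared arms alone, a replicate block, the DMSO library of the same vector alone and leaving out each library. The scaling to the member mean was added after the data were seen. Correlations of deviations between same-numbered libraries were highest for sgRUVBL2 against sgRUVBL1 in BxPC-3, at 0.22 to 0.46 over 3 pairs. Pairs of other numbers there had -0.37 to 0.26. Each library was also closest to its own number for sgRUVBL2 against sgRUVBL1 in T3M-4 (0.09 to 0.23). The same held for sgKLF5 in BxPC-3 experiment 2 (0.03 to 0.20) and sgRpa3 in T3M-4 experiment 1 (0.04). Whether libraries of 1 number belong together is not given in the labels. Start windows, promoters and letters came from RefSeq (GRCh38.p14), and exon and snoRNA annotation from GENCODE release 44. Values of some genes are not reported here.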

Additional observations from a re-analysis of the deposited data

Results flagged for a closer look

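In CFPAC-1, sgRUVBL1 replicate 1 had a summed share of the 77 genes of 20.24% of TPM, far above the other libraries of its arm, and in T3M-4 experiment 2 sgRosa replicate 4 had 23.21%. These were 2 of 30 groups tested, and chance flags about 1 group in 20. The sgRUVBL1, sgRUVBL2 and sgKLF5 libraries of T3M-4 experiment 2 all lay below all sgRosa libraries in share, and those of CFPAC-1 all lay above all sgRosa libraries. The sgCDK1 libraries of T3M-4 experiment 2, at 16.4% and 17.5%, also lay below all its sgRosa libraries. In CFPAC-1 the sgCDK1 libraries, at 14.9% and 15.0%, lay within the sgRosa range of 14.6% to 16.7%. The mean differences in share were -5.156 and 3.386 percentage points with sgRUVBL1, -4.213 and 1.651 with sgRUVBL2 and -3.17 and 2.678 with sgKLF5, and the difference between the lines was not tested. Without T3M-4 sgRosa replicate 4, left out after seeing the data, the T3M-4 differences were -3.91, -2.97 and -1.92 percentage points in the same order. The effect of CB6644 differed between lines for 48 members (T84 and A375), 21 (T84 and H1048), 37 (T84 and RH30), 40 (A375 and H1048), 19 (A375 and RH30) and 35 (H1048 and RH30). These were 62.3%, 27.3%, 48.1%, 51.9%, 24.7% and 45.5% of the members, where 58.3%, 50.2%, 50.5%, 56.9%, 59.5% and 54% of all genes differed.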

How the results depend on the processing

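Of 1023 recomputed counts of called members, 844 stayed within 1.5 times the reported count, and of 3635 recomputed values of named members 3322 kept direction and call, 306 lost the call and 7 turned. The counts of T84, H1048, T3M-4 sgRUVBL1 and sgRUVBL2, and CFPAC-1 sgRUVBL1 were among those that moved by less than 1.5 times under every alternative run. Where a count moved, the cause was not tested. The shares of all genes called under the alternatives are not given here. The recounts therefore do not show whether the members alone moved. Depth is unknown, so what it limits could not be measured.

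With median-of-ratios scaling the 7 values that turned were RPL18 in AsPC-1 experiment 3 sgRUVBL1 (-0.0294), RPL12 in T84 (-0.0155), RPLP2, RPLP1 and RPL39 in H1048 (-0.0453, -0.0355 and -0.0223), and RPLP2 and RPS19 in RH30 (-0.0180 and -0.0122). Under it called members numbered 67 in A375 and 67 in RH30 (lower), 13 for T84 minus H1048, 15 for AsPC-1 experiment 2 sgRUVBL1, 38 for AsPC-1 sgRUVBL2, 2 for sgCHD4, 20 for AsPC-1 Lv-Empty against RUVBL2_dF109, 0 for T3M-4 Lv-Empty with CB6644, 6 and 2 for sgCDK1 in T3M-4 and AsPC-1, 1 for BxPC-3 sgRUVBL2, and 0 for sgKLF5 in AsPC-1 experiment 1 and BxPC-3 experiments 1 and 2, sgRUVBL1 in BxPC-3, sgCDK1 in BxPC-3 and sgRpa3 in BxPC-3 experiment 2 and CFPAC-1.

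With no filter on low values they numbered 0, 2 and 2 for sgKLF5 in AsPC-1 experiment 1 and BxPC-3 experiments 1 and 2, 2 and 1 for sgRUVBL1 and sgRUVBL2 in BxPC-3, 1, 4 and 5 for sgCDK1 in BxPC-3, AsPC-1 and T3M-4, 2 and 1 for sgRpa3 in BxPC-3 experiment 2 and CFPAC-1, and with CB6644 2 and 17 for RUVBL2_dF109 in AsPC-1 and T3M-4 and 2 for Lv-Empty in T3M-4. With the compared arms alone they numbered 1, 14 and 20 for sgKLF5 in AsPC-1 experiment 3, BxPC-3 experiment 2 and CFPAC-1, 0 and 0 for sgRUVBL2 in BxPC-3 and CFPAC-1, 18 and 0 for sgCDK1 in AsPC-1 and T3M-4, and 0, 4, 10 and 0 for sgRpa3 in T3M-4 experiment 2, BxPC-3 experiments 1 and 2 and CFPAC-1. For CB6644 they were then 0 and 1 (AsPC-1 RUVBL1_A62T and RUVBL2_dF109) and 0, 37 and 3 (T3M-4 Lv-Empty, RUVBL1_A62T and RUVBL2_dF109). Against the DMSO library of the same vector alone, assumed to vary like the other arms, they were 13, 0 and 46 in AsPC-1 (Lv-Empty, RUVBL1_A62T, RUVBL2_dF109) and 2 and 0 in T3M-4 (Lv-Empty, RUVBL1_A62T).

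With the replicate block the counts were 5 for sgKLF5 in AsPC-1 experiment 1, 20 for sgKLF5 in T3M-4 experiment 1, 1 for sgRUVBL2 in BxPC-3, 1 for sgRUVBL2 against sgRUVBL1 in AsPC-1, 6 for sgCDK1 in T3M-4, and 9 and 1 for sgRpa3 in BxPC-3 experiment 2 and CFPAC-1. For sgRUVBL2 against sgRUVBL1 in BxPC-3, where same-numbered libraries correlated most, the count was 0 with and without the block. Whether same-numbered libraries belong together is not known. The block gave 59, 39, 56 and 44 falls in T84, A375, H1048 and RH30.

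Leaving out 1 library at a time gave 0 to 2, 0 to 11, 1 to 4 and 0 to 1 calls for sgKLF5 in AsPC-1 experiment 1, BxPC-3 experiments 1 and 2 and T3M-4 experiment 1, and 34 to 56 and 12 to 67 in T3M-4 experiment 2 and CFPAC-1. It gave 1 to 7 and 1 to 10 for sgRUVBL1 and sgRUVBL2 in BxPC-3, 0 to 26 for sgRUVBL2 in CFPAC-1, and 0 to 4 and 0 to 2 for sgRUVBL2 against sgRUVBL1 in AsPC-1 and BxPC-3. For sgCDK1 it gave 0 to 2, 2 to 5 and 0 to 24 in BxPC-3, AsPC-1 and T3M-4, for sgRpa3 1 to 8, 0 to 4 and 0 to 4 in T3M-4 experiment 2, BxPC-3 experiment 2 and CFPAC-1, and for sgCHD4 11 to 26. With CB6644 in AsPC-1 it gave 32 to 70 (Lv-Empty), 0 to 15 (RUVBL1_A62T), 1 to 44 (RUVBL2_dF109), 22 to 32 (Lv-Empty against RUVBL1_A62T) and 19 to 28 (against RUVBL2_dF109). In T3M-4 it gave 1 to 46 (Lv-Empty), 41 to 77 (RUVBL1_A62T), 5 to 70 (RUVBL2_dF109) and 35 to 76 (Lv-Empty against RUVBL2_dF109).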
